A study of Mus musculus with 29 samples.

Results

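The set described here comprises 32 genes for the entry of pyruvate into the mitochondrion, the tricarboxylic acid (TCA) cycle, the cytosolic forms of some of its enzymes, and the exchange of malate, aspartate and glutamate with the cytosol. They were listed by symbol, with no threshold on a measured value, and all 32 are among the 11959 genes in the deposited count table. Expression was measured by RNA-seq in 3T3-L1, an established line of mouse preadipocytes that can be turned into fat cells. C70 (KDM5-C70) inhibits the KDM5 family of histone demethylases. The 29 samples formed 8 groups, with DMSO vehicle or 10 µM C70 present from day -2, when the cells were confluent, to day 0. From day 0 to day 2 all cells received differentiation medium with dexamethasone, insulin, isobutylmethylxanthine and a PPARγ agonist, followed by adipocyte medium. Each of days 0, 1 and 2 had 3 vehicle and 4 C70 replicates, and day 7 had 4 of each. All groups are from this 1 cell line, and the labels do not say that replicates came from separate cultures, so p-values measure the spread between these samples, which may be technical.

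Pyruvate made from glucose crosses the inner mitochondrial membrane through a carrier and is turned into acetyl-CoA by the pyruvate dehydrogenase complex or into oxaloacetate by pyruvate carboxylase. The complex is switched off by kinases and on again by phosphatases. In fat cells, citrate that leaves the cycle for the cytosol supplies acetyl-CoA for fatty acid synthesis, so the cycle serves both energy production and lipid storage.

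Values are CPM, that is, counts over library size with TMM scaling factors. Changes were tested with edgeR's quasi-likelihood test over all 11959 genes, and a gene was called where the Benjamini-Hochberg adjusted p was under 0.05 and the log2 fold change over 0.32 in size, which is called the fold threshold here. Gene coordinates are those of GENCODE M21 on the GRCm38 build. In what follows, rose and fell are used for called changes. Total counts were 16320275 to 24037170 per sample. The labels name adipocytes for every sample, but Adipoq, the adipokine adiponectin, was at 0.186 to 0.403 CPM in vehicle at day 0 and at 1225 to 1620 CPM at day 7. Dlk1, which is expressed in preadipocytes, was at 2470.0 to 2666 CPM in vehicle at day 0. Fabp4 and Pparg, which also mark adipocytes, averaged 50.6 and 53.4 CPM there. Adiponectin RNA was thus near 0 at day 0, when Dlk1 RNA was high. Since these are bulk samples, fewer cells of a type and less RNA per cell cannot be told apart.

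In vehicle, most of the set rose during differentiation. Between day 0 and day 1, 25 members rose and 3 fell, where 26.2% of all genes rose and 28% fell. By day 2, 27 had risen and 2 had fallen, against 33.4% and 32.4% of all genes. By day 7, 28 had risen and 4 had fallen, against 36.7% of all genes in each direction. The median log2 fold change of the members was 0.76, 1.65 and 2.27 at days 1, 2 and 7 relative to day 0, and that of all genes was 0.01, 0.02 and 0.01. Markers of cell state moved over the same days in vehicle. The summed level of 9 adipocyte markers was 1291 to 1413 CPM at day 0 and 25261 to 29529 CPM at day 7, and 9 of 9 were higher than at day 0 on each later day. Lpl, with a mean of 1237 CPM, made up most of the day 0 sum. For 7 preadipocyte and fibroblast markers the sums were 20406 to 21081 and 2219 to 2906 CPM, with 6 lower at day 1 and 7 lower at days 2 and 7. Col1a1 and Col3a1, with means of 10696 and 6022 CPM, made up most of the day 0 sum. For 8 markers of dividing cells the sums were 490.05 to 592 and 78.4 to 89.3 CPM, with 4 higher and 2 lower at day 1, 2 higher and 1 lower at day 2 and 8 lower at day 7. Their part in the members' changes was not tested. Standard errors of the members' called changes were 0.038 to 0.097, and the highest adjusted p among them was 4.32e-04. At day 1 the calls of Dlst at 0.34 and Pdk2 at 0.34 were lost with a stricter filter on low levels, both at 0.31, and without single libraries. Dlst was at 0.32 without vehicle replicate 2 of day 1, and Pdk2 at 0.28 and 0.32 without vehicle replicates 2 and 3 of day 0. Cs was gained at 0.32 without vehicle replicate 3 of day 1 and at 0.35 with quantile normalization and limma.

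**Figure D1:**
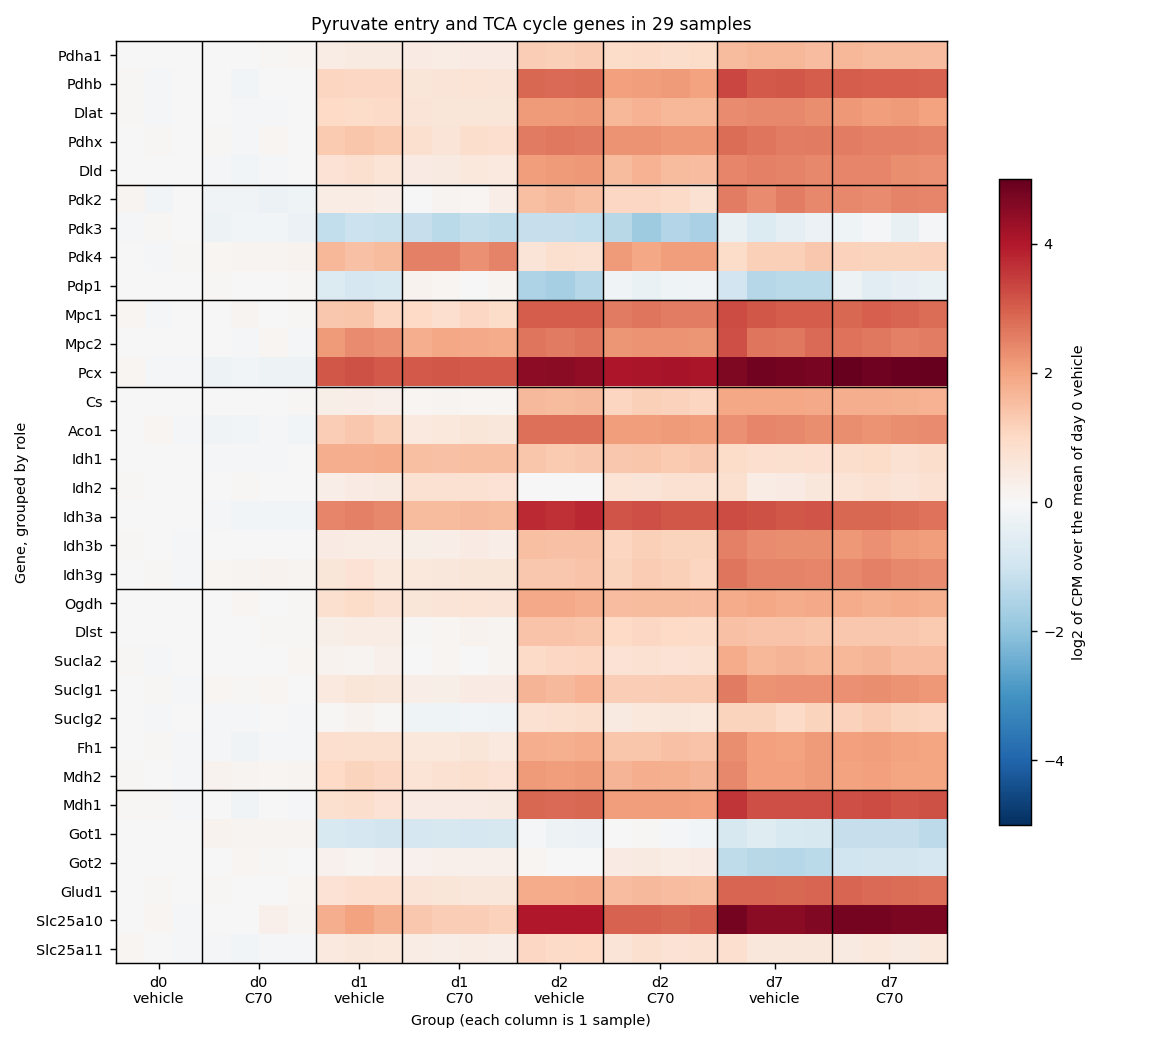
Log2 of each member's CPM over its mean in day 0 vehicle, with 1 column per sample and 1 row per gene. Lines separate the 8 groups and the 6 roles. Most rows are red at days 2 and 7, Pdk3 and Pdp1 are blue in vehicle, and Pdk4, Pdp1 and Idh2 are higher after C70 than in vehicle at day 2.

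Levels of different genes were compared as CPM per kilobase of exon, with all annotated exons of a gene joined. The transcripts present may be shorter, so ranks, and the shares of gene families given below, depend on this length. It was 7344 bases for Mpc2 and 2082 for Mpc1, which were at 32.7 to 34.1 and 10.5 to 11.8 CPM in day 0 vehicle. In day 0 vehicle the highest mean levels were those of Idh1 (97.1), Idh2 (72.1) and Mdh2 (56.5), and the lowest those of Mpc2 (4.54), Pdhx (4.82) and Pdk2 (5.06). Pdha1 (55.6) lay within the spread of Mdh2, and Mpc1 (5.29) within that of Pdk2. At day 7 the highest was Pcx (799), which had ranked 11 of 32 at day 0 with 29.4. Mdh1 (319), Glud1 (255) and Mdh2 (254) came next, and the last pair lay within their spread. Idh2 moved from rank 2 to rank 12. Pdp1 was the lowest at day 7, with 5.19.

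After C70 no member was called at day 0, 10 of the 32 fell at day 1, 20 fell at day 2, and 2 fell at day 7. At day 0, edgeR's quasi-likelihood test called 0 of 32 members in either direction, where 5.89% of all genes rose and 3.09% fell. At that day 8 members had an unadjusted p under 0.05, and DESeq2 and limma-voom also called 0. At day 1, 3 members rose and 10 fell, against 13.6% and 7.82% of all genes. At day 2, 4 rose and 20 fell, against 16.9% and 13.6%. At day 7, 2 rose and 2 fell, against 14.3% and 4.88%. The median log2 fold change of the members was 0.02, -0.21, -0.38 and -0.10 at days 0, 1, 2 and 7, and that of all genes lay between -0.01 and 0.00. On the adjusted p alone, 1 member was higher and 2 were lower at day 0, where 10.9% and 8.91% of all genes were. At day 1 these counts were 3 and 21, against 21% and 19.7%. At day 2 they were 5 and 26, against 25.3% and 25.4%, and at day 7 5 and 12, against 22.3% and 18.8%.

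Separation of the replicates followed the same course. Every C70 replicate was below every vehicle replicate for 20 members at day 1, where this held for 23.8% of all genes, and for 26 members at day 2, against 29%. It held for 6 members at day 0 (16%) and 10 at day 7 (12.8%). The reverse, with every C70 replicate the higher, held for 5, 3, 4 and 3 members at days 0, 1, 2 and 7, against 18%, 24.4%, 28.2% and 16.5% of all genes. With a fold change over 1.5 in place of the fold threshold, 3 members were lower at day 1, 5 at day 2 and 0 at day 7, against 1.64%, 4.67% and 0.87% of all genes, and 1 was higher at day 7, against 7.95%. Over the 4 days 26 members were called at least once, 13 on 2 or more days and 6 on none, where 44.5%, 23.3% and 55.5% of all genes were. The 6 were Idh3g, Ogdh, Sucla2, Suclg2, Glud1 and Slc25a11. Pdk4, Pdp1 and Idh2 were higher at both day 1 and day 2, as were 9.91% of all genes, and 9 members were lower at both, against 4.86%.

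**Figure D2:**
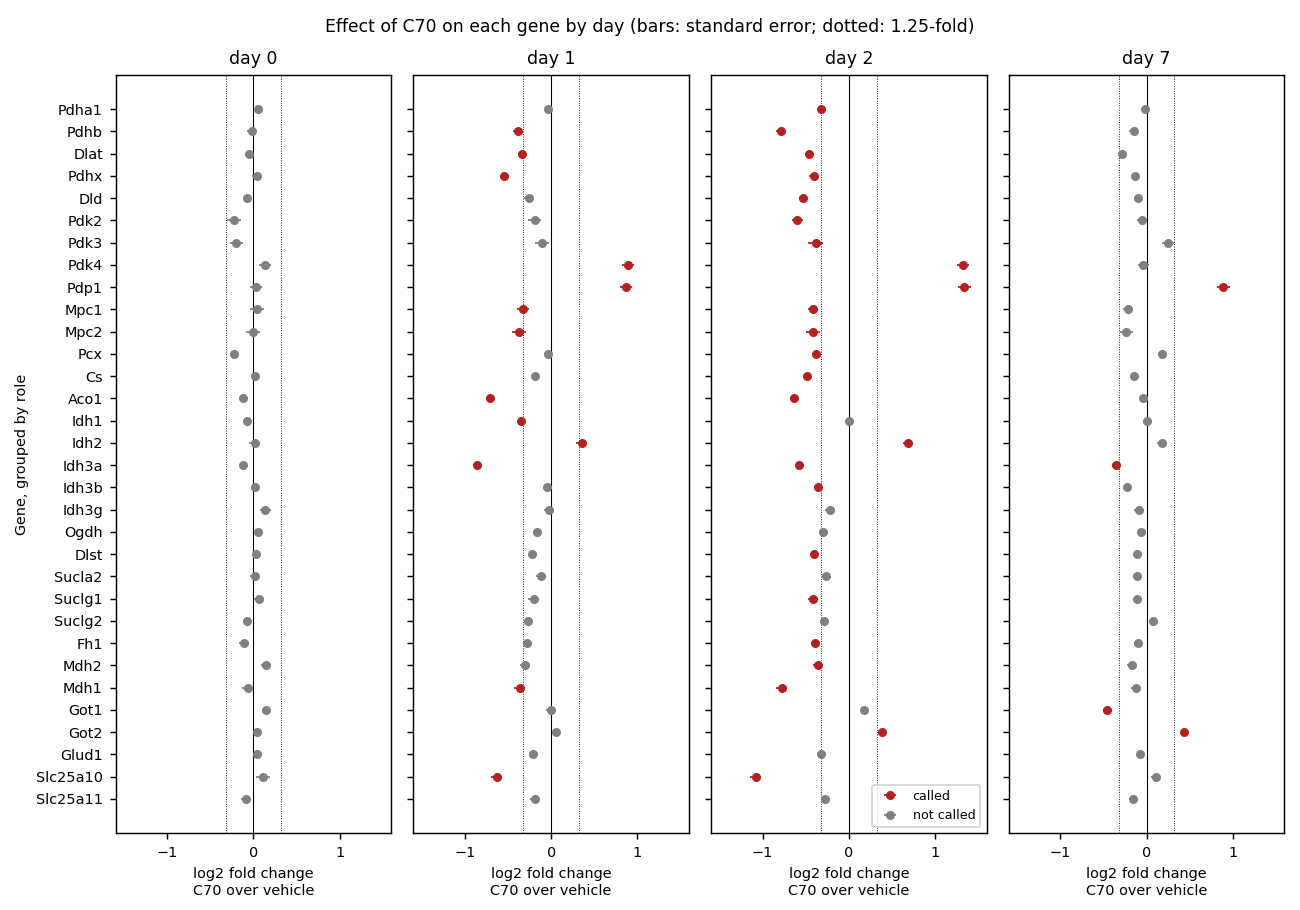
Log2 fold change of C70 over vehicle for each member at days 0, 1, 2 and 7, with bars for the standard error and dotted lines at the fold threshold. Red points were called and grey points were not. At day 2, 20 red points lie to the left of 0 and 4 to the right.

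The 5 subunits of the pyruvate dehydrogenase complex, which joins glycolysis to the TCA cycle, rose in vehicle and were all lower after C70 at day 2. Pdhb (chromosome 14, 8165996-8173025, minus strand) encodes the beta subunit of its first enzyme. Its values at day 1 were 87.2, 84.8 and 84.6 CPM in vehicle and 63.8, 65.1, 67.3 and 64.97 CPM after C70. At day 2 they were 305, 299 and 304 CPM in vehicle and 174, 179, 181 and 168 CPM after C70. The groups did not overlap on either day, with log2 fold changes of -0.39 (SE 0.056, adjusted p = 1.39e-06) and -0.79 (SE 0.053, adjusted p = 1.50e-13). At day 7 Pdhb was at 423, 351, 356 and 343 CPM in vehicle and 339.9, 335, 326 and 326 CPM after C70, where vehicle replicate 1 stood above the rest, and at -0.15 (SE 0.049, adjusted p = 0.0138) it was not called. In vehicle, Pdhb rose by 1.03, 2.86 and 3.14 on the log2 scale by days 1, 2 and 7. Pdha1 encodes the alpha subunit of the same enzyme, and at day 2 it was at 492, 476 and 501 CPM in vehicle and 392, 401, 384 and 389 CPM after C70. Its log2 fold change of -0.32 (SE 0.038, adjusted p = 2.27e-08) lay at the fold threshold. The Pdha1 call was lost, at -0.32 to -0.30, without any 1 of 10 libraries. These were C70 replicate 1 of day 1, vehicle replicates 1 and 3 and C70 replicates 3 and 4 of day 2, and vehicle replicates 1, 2 and 4 and C70 replicates 1 and 2 of day 7. The call was also lost, at -0.31, with quantile normalization and limma and with a stricter filter on low levels. At -0.32 it was lost by limma-voom, with a replicate block and in a separate fit for each day. Pdha1 rose in vehicle by 0.42, 1.24 and 1.62.

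Dlat (chromosome 9, 50634633-50659780, minus strand) encodes the acetyltransferase core of the complex. At day 1 its values were 106, 101 and 102 CPM in vehicle and 82.9, 80.6, 80.6 and 81.3 CPM after C70, and at day 2 230.2, 234 and 242 CPM in vehicle and 169.6, 179, 166 and 168 CPM after C70. C70 samples were below all vehicle samples on both days. The log2 fold changes were -0.34 (SE 0.043, adjusted p = 2.15e-07) and -0.46 (SE 0.041, adjusted p = 9.01e-11), and the first was no longer called, at -0.32, without vehicle replicate 1 of day 1 or with a stricter filter on low levels. Pdhx (chromosome 2, 103021075-103073513, minus strand), whose product anchors the third enzyme to the core, was at 46.7, 49.5 and 47.5 CPM in vehicle and 33.3, 29.3, 34.6 and 34.4 CPM after C70 at day 1. It was at 116, 119 and 116 CPM in vehicle and 90.4, 90.8, 85.6 and 85.9 CPM after C70 at day 2. All C70 values were again the lower, with log2 fold changes of -0.54 (SE 0.055, adjusted p = 2.32e-09) and -0.41 (SE 0.05, adjusted p = 4.58e-08). Dld encodes the dehydrogenase that the complex shares with 2-oxoglutarate dehydrogenase, and it fell at day 2, with -0.53 (SE 0.047, adjusted p = 5.22e-11). Its log2 fold change at day 1 was -0.26, with an adjusted p of 5.12e-05 but under the fold threshold, and it was called with quantile normalization and limma (-0.32). By day 2 in vehicle, Dlat, Pdhx and Dld had risen by 2.15, 2.63 and 2.14 on the log2 scale. By day 7 these changes were 2.38, 2.66 and 2.47.

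The kinases that inactivate the complex moved in opposite directions at day 2, with Pdk4 higher and Pdk2 and Pdk3 lower after C70. Pdk4 (chromosome 6, 5483351-5496309, minus strand) encodes the kinase isoform best known for its induction by fasting. At day 0 it was at 55.1, 51.8 and 57.01 CPM in vehicle and 57.7, 59.99, 60.7 and 61.9 CPM after C70, with the C70 samples slightly above vehicle, and at day 7 at 104, 125, 125 and 138 CPM in vehicle and 121, 119, 118 and 122 CPM after C70. The gap was wider between these days, with 173, 152 and 163 CPM in vehicle and 316, 312, 269.9 and 307 CPM after C70 at day 1. Pdk4 at day 2 was at 86.2, 95.98 and 93.1 CPM in vehicle and 242, 209.95, 231 and 236 CPM after C70. Every C70 sample lay above every vehicle sample at days 1 and 2. Log2 fold changes were 0.89 (SE 0.068, adjusted p = 5.97e-12) at day 1 and 1.32 (SE 0.07, adjusted p = 6.69e-16) at day 2. At days 0 and 7 they were 0.14 (SE 0.072, adjusted p = 0.199) and -0.04 (SE 0.063, adjusted p = 0.675), and neither was called. The vehicle course of Pdk4 went up by 1.57 at day 1, and stood at 0.75 and 1.17 above day 0 at days 2 and 7.

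Pdk2, the widely expressed kinase isoform, was at 20.4, 20.5 and 20.02 CPM in vehicle and 16.2, 17.8, 16.9 and 20.1 CPM after C70 at day 1, where the groups overlapped. At day 2 it was at 45.9, 49.6 and 45.9 CPM in vehicle and 32.7, 33.2, 31.3 and 27.5 CPM after C70, with all C70 values below vehicle. Its log2 fold change at day 2 was -0.60 (SE 0.066, adjusted p = 5.86e-09), beside -0.19 (SE 0.075, adjusted p = 0.0397) at day 1 and -0.22 (SE 0.079, adjusted p = 0.0438) at day 0, both under the fold threshold. At day 0 it was at 17.6, 14.8 and 15.7 CPM in vehicle and 14.3, 14.1, 13.01 and 13.7 CPM after C70, and at day 7 at 93.6, 83.1, 93.9 and 85.5 CPM in vehicle and 83.8, 83.5, 89.5 and 86.03 CPM after C70. Pdk2 rose through the vehicle course, by 0.34, 1.55 and 2.47. Pdk3 encodes a further isoform, which in vehicle fell by 1.14, 1.18 and 0.44 on the log2 scale by days 1, 2 and 7. At days 0 and 1 it was at 47.1, 51.8 and 50.6 CPM in vehicle and 42.3, 44.8, 45.6 and 40.6 CPM after C70, and then at 21.1, 23.6 and 23.3 CPM in vehicle and 22.1, 19.6, 21.8 and 20.6 CPM after C70. At day 2 it was at 22.4, 22.2 and 21.4 CPM in vehicle and 18.9, 14.6, 17.9 and 16.03 CPM after C70, without overlap, and at day 7 at 38.8, 31.1, 36.2 and 40.6 CPM in vehicle and 42.6, 46.8, 38.6 and 46.1 CPM after C70, with overlap. Only the day 2 difference was called, with -0.39 (SE 0.088, adjusted p = 5.09e-04). All C70 values of Pdk3 were already below vehicle at day 0. Its C70 effect at day 2 differed from that at day 0 by -0.18, which was not called. At day 7 Pdk3 was higher after C70 on the adjusted p alone, under the fold threshold.

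Pdp1 (chromosome 4, 11958184-11966452, minus strand) encodes a catalytic subunit of the phosphatase that reactivates the complex. In vehicle it fell by 0.78, 1.56 and 1.27 on the log2 scale at days 1, 2 and 7, the opposite course to most of the set. Its values were 55.3, 57.3 and 56.2 CPM in vehicle and 59.04, 57.2, 55.5 and 58.1 CPM after C70 at day 0. At day 1 they were 34.6, 31.04 and 32.8 CPM in vehicle and 62.98, 59.8, 55.8 and 61.2 CPM after C70. At day 1 the C70 samples were near the day 0 level and the vehicle samples were below it. At day 2 Pdp1 was at 19.3, 17.6 and 20.7 CPM in vehicle and 49.7, 45.1, 48.7 and 50.3 CPM after C70, and at day 7 at 28.6, 20.7, 22 and 22.1 CPM in vehicle and 47.4, 39.3, 42.1 and 44.3 CPM after C70. The groups did not overlap at days 1, 2 and 7. Log2 fold changes were 0.87 (SE 0.074, adjusted p = 6.89e-11), 1.34 (SE 0.079, adjusted p = 9.21e-15) and 0.89 (SE 0.073, adjusted p = 2.70e-11), and Pdp1 was the only member higher on these 3 days.

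**Figure D3:**
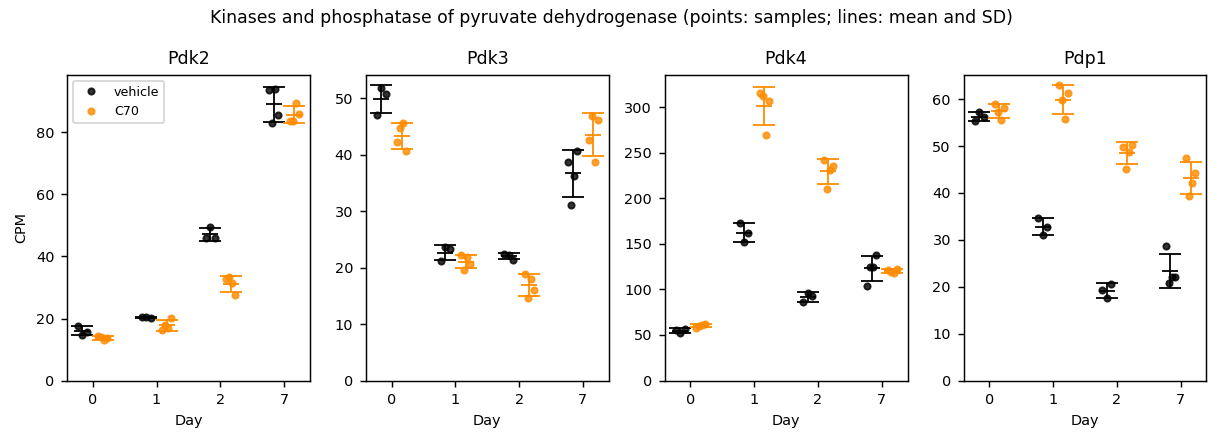
CPM of Pdk2, Pdk3, Pdk4 and Pdp1 in each sample by day, in black for vehicle and orange for C70, with lines for the mean and SD of 3 or 4 replicates. Axes start at 0. At days 1 and 2 the orange points of Pdk4 and Pdp1 lie above the black, and at day 2 those of Pdk2 and Pdk3 lie below.

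Pdk1 and Pdp2, paralogs outside the set, were set beside these genes. Pdk1 was lower after C70 at day 2, with -0.75 (SE 0.095, adjusted p = 8.92e-08), and Pdp2 at days 1 and 2, with -0.37 (SE 0.093, adjusted p = 0.00182) and -0.84 (SE 0.079, adjusted p = 2.89e-10). As a share of the summed length-scaled level of Pdk1 to Pdk4, Pdk4 was 39.7% ± 0.8 (SD, n = 3) in vehicle and 71.4% ± 1.6 (SD, n = 4) after C70 at day 2. At day 1 this share was 61.6% ± 3.2 and 75.9% ± 1.7. The day 7 shares were 26.96% ± 2.2 and 27.95% ± 0.72. Pdp1 made up 40.7% ± 1.9 of Pdp1 and Pdp2 together in vehicle and 75.6% ± 1.3 after C70 at day 2. At day 1 the Pdp1 shares were 74.2% ± 2.9 and 87.1% ± 1.1, and at day 7 29.002% ± 5.8 and 46.3% ± 1.5. At day 0 they were 76.8% ± 1.3 and 77.3% ± 0.47, so that Pdp1 held the smaller share in vehicle at days 2 and 7 and, after C70, at day 7.

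Sequence upstream of the start is shown for 4 members, because Pdk4 and Idh2 were higher and Pdhb and Slc25a10 lower after C70 at days 1 and 2. The sequence is that of RefSeq. Each run covers bases 250 to 51 before the RefSeq start site in GRCm38.p6, 5′ to 3′ on the strand of the gene. Capitals mark the GC box GGGCGG and the CCAAT box CCAAT on either strand, and the E-box CACGTG, which reads the same on both strands. Matches of different motifs did not overlap in these runs.
Pdk4 (chr6:5496329-5496528, minus strand): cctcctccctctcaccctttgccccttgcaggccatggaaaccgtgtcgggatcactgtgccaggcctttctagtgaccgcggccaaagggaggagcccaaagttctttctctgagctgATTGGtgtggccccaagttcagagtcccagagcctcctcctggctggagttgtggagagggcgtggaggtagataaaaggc
Idh2 (chr7:80115401-80115600, minus strand): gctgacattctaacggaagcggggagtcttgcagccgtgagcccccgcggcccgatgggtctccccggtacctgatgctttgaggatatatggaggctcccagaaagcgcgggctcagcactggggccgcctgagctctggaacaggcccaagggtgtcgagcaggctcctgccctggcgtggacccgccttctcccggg
Pdhb (chr14:8173043-8173242, minus strand): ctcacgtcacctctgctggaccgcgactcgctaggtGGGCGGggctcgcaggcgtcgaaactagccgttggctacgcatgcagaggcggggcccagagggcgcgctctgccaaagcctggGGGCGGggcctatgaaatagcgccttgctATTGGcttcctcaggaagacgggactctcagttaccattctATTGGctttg
Slc25a10 (chr11:120491587-120491786, plus strand): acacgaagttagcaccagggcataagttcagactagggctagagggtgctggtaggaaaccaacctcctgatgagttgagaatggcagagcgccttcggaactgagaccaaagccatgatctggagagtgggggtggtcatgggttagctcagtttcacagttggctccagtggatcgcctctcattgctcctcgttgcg
The Pdhb run held 2 GC boxes, 2 CCAAT boxes and 16 CpG dinucleotides, and the Slc25a10 run held none of the motifs and 6 CpG. Pdk4 had 1 CCAAT box and 5 CpG, and Idh2 had 14 CpG and no match. In all, 39 windows were found for 30 of the 32 members, and none for Pdp1 and Idh3a. A GC box was present for 19, a CCAAT box for 17 and an E-box for 3 of these 30 genes in at least 1 window, or 63.3%, 56.7% and 10%. Of all 9007 genes with windows of this length, 50.8%, 34.5% and 7.12% had the respective motif by the same count, and of their 11494 windows 44.4%, 29.8% and 5.86%. These matches describe the letters only.

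The pyruvate carrier and carboxylase genes all rose in vehicle and were all lower after C70 at day 2. Mpc1 (chromosome 17, 8282904-8297661, plus strand) and Mpc2 (chromosome 1, 165460637-165481214, plus strand) encode the subunits of the mitochondrial pyruvate carrier. Mpc1 was at 27.9, 28.4 and 23.3 CPM in vehicle and 22.04, 19.6, 22.3 and 20.6 CPM after C70 at day 1, and at 88.8, 89.6 and 88.7 CPM in vehicle and 66.3, 70.8, 65.3 and 65.3 CPM after C70 at day 2. C70 values were the lower on both days, with log2 fold changes of -0.33 (SE 0.07, adjusted p = 3.32e-04) and -0.41 (SE 0.059, adjusted p = 7.97e-07). For Mpc2 the day 1 values were 145, 169.95 and 161 CPM in vehicle and 117, 127, 125 and 122 CPM after C70. The day 2 values were 213, 200.03 and 215 CPM in vehicle and 155, 159, 157 and 154 CPM after C70. Mpc2 was likewise lower without overlap, with -0.37 (SE 0.083, adjusted p = 5.76e-04) and -0.42 (SE 0.082, adjusted p = 7.50e-05). The day 1 calls were close to the fold threshold. That of Mpc1 was lost, at -0.32 to -0.28, without vehicle replicate 1 or 2 or C70 replicate 2 or 4 of day 1, and that of Mpc2, at -0.32, without vehicle replicate 2. That of Mpc1 was also lost, at -0.31, with a stricter filter on low levels. At days 0 and 7 neither carrier gene was called, with 0.04 and -0.21 for Mpc1 and -0.00 and -0.24 for Mpc2 on the log2 scale. For Mpc2 at day 7, vehicle replicate 1 stood at 307 CPM, above the other vehicle values of 215, 205 and 235 CPM. The C70 samples were at 189 to 221 CPM. In vehicle Mpc1 rose by 1.27, 3.01 and 3.10, and Mpc2 by 2.25, 2.65 and 2.85.

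Pcx encodes pyruvate carboxylase, which makes oxaloacetate from pyruvate. It rose in vehicle by 3.11, 4.47 and 4.77 on the log2 scale, more than any other member at each of these days. Its C70 difference was called at day 2 alone, with values of 3124, 3146 and 3039.8 CPM in vehicle and 2319.5, 2382, 2441 and 2382 CPM after C70. There the groups were apart, with -0.38 (SE 0.044, adjusted p = 1.77e-08). At day 0 Pcx was at 149.5, 133 and 136 CPM in vehicle and 118, 126, 116 and 118 CPM after C70, also without overlap, and its -0.23 (SE 0.046, adjusted p = 6.44e-04) was the most negative log2 fold change of any member on that day but under the fold threshold. That of Pdk2, at -0.22, lay within this standard error. At day 7 the order was turned, with 3574, 4002, 3839 and 3777 CPM in vehicle, 4381, 4113, 4323 and 4373 CPM after C70 and a log2 fold change of 0.18 (SE 0.041, adjusted p = 8.66e-04), again under the fold threshold.

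The steps from citrate to 2-oxoglutarate held members that moved apart from each other. Aco1 (chromosome 4, 40143081-40198338, plus strand) encodes the cytosolic aconitase, which also acts as an iron-regulated RNA-binding protein. It was at 152, 166 and 147 CPM in vehicle and 90.8, 92.7, 98.8 and 96.4 CPM after C70 at day 1, and at 433, 432 and 436 CPM in vehicle and 274, 279, 287 and 275 CPM after C70 at day 2. All C70 values lay below vehicle, with log2 fold changes of -0.71 (SE 0.046, adjusted p = 1.55e-13) and -0.64 (SE 0.045, adjusted p = 3.99e-13), and at day 7 it was -0.04 (SE 0.042, adjusted p = 0.445). Cs, which encodes the citrate synthase that starts the cycle, fell at day 2 with -0.48 (SE 0.035, adjusted p = 1.11e-12). Its day 1 difference of -0.18 (SE 0.036, adjusted p = 1.44e-04) was under the fold threshold. Aco1 and Cs had risen in vehicle by 2.74 and 1.62 at day 2, and stood at 2.36 and 1.93 over day 0 at day 7.

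Idh3a (chromosome 9, 54586334-54604661, plus strand), the catalytic subunit of the NAD-dependent isocitrate dehydrogenase of the cycle, was the member lowered on the most days. At day 0 it was at 43.4, 45.1 and 43.5 CPM in vehicle and 40.9, 39.9, 40.2 and 40.5 CPM after C70. At day 1 it was at 236, 249 and 234 CPM in vehicle and 133, 130.1, 134 and 132 CPM after C70. The C70 samples were lower without overlap on both days, although the day 0 difference of -0.12 (SE 0.048, adjusted p = 0.0726) was not called. At day 2 Idh3a was at 578, 560.1 and 604 CPM in vehicle and 393, 408, 379 and 378 CPM after C70. At day 7 it was at 423, 401, 382 and 389 CPM in vehicle and 324, 326, 301 and 292 CPM after C70. No C70 sample reached the vehicle range at days 1, 2 or 7, and the log2 fold changes were -0.86 (SE 0.044, adjusted p = 7.50e-16), -0.58 (SE 0.043, adjusted p = 1.62e-12) and -0.36 (SE 0.04, adjusted p = 1.73e-08). Idh3a rose in vehicle by 2.45, 3.72 and 3.18.

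The other subunits of this enzyme moved less at day 1. Idh3b, a regulatory subunit, was at 128, 127 and 127 CPM in vehicle and 118, 122, 130.4 and 123 CPM after C70 at day 1, with overlap, and at 278, 271 and 267 CPM in vehicle and 206, 223, 211 and 211 CPM after C70 at day 2, without. Its log2 fold changes were -0.05 (SE 0.048, adjusted p = 0.468) and -0.35 (SE 0.047, adjusted p = 1.85e-07). At day 0 and day 7 Idh3b was at 0.01 and -0.22 on the same scale, neither called. Idh3g, the gamma regulatory subunit, was at 85.3, 92.1 and 80.7 CPM in vehicle and 81.6, 82.5, 86.8 and 86.5 CPM after C70 at day 1. At day 2 it was at 145, 145 and 152 CPM in vehicle and 122, 137, 129 and 119.6 CPM after C70, and it was called on no day, with -0.21 (SE 0.058, adjusted p = 0.00255) at day 2. At days 0 and 7 its log2 fold changes were 0.14 and -0.09. Of the summed length-scaled level of the Idh3 genes, Idh3a made up 40.6% ± 0.33 (SD, n = 3) in vehicle and 27.9% ± 0.64 (SD, n = 4) after C70 at day 1. At day 2 the shares were 46.1% ± 0.84 and 41.3% ± 0.77, and at day 7 22.7% ± 0.57 and 20.3% ± 0.57. The gap was widest at day 1, and at day 0 the shares were 14.98% ± 0.49 and 13.4% ± 0.35. In vehicle Idh3b rose by 0.39, 1.48 and 2.39 and Idh3g by 0.61, 1.38 and 2.52 on the log2 scale.

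Idh2 (chromosome 7, 80094846-80115392, minus strand) encodes the mitochondrial NADP-dependent isocitrate dehydrogenase, which yields NADPH in the matrix. It was at 194, 182 and 184 CPM in vehicle and 191, 192, 188 and 184 CPM after C70 at day 0, with overlap. At day 1 it was at 238, 251 and 253 CPM in vehicle and 314, 318, 319.96 and 312 CPM after C70. The next day the values were 190.1, 189.6 and 189 CPM in vehicle and 299.7, 291, 316 and 314 CPM after C70. C70 samples were the higher on both later days, with log2 fold changes of 0.35 (SE 0.062, adjusted p = 3.10e-05) and 0.69 (SE 0.063, adjusted p = 1.44e-10). At day 7 the values were 322, 239, 246 and 274 CPM in vehicle and 296, 313, 292 and 320.1 CPM after C70, and the groups overlapped with 0.18 (SE 0.057, adjusted p = 0.014). Without vehicle replicate 1 they would not overlap, since the other vehicle values lay below every C70 value. Idh2 was still not called at day 7 when that replicate was left out. In vehicle the level of Idh2 relative to day 0 was 0.41, 0.02 and 0.53 on the log2 scale at days 1, 2 and 7, and only the middle value was not called.

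Idh1, the cytosolic NADP-dependent enzyme, was at 947, 954 and 984 CPM in vehicle and 759.6, 734, 763 and 769.8 CPM after C70 at day 1 and fell with -0.35 (SE 0.039, adjusted p = 1.76e-08). At day 2 it was at 706, 663 and 684 CPM in vehicle and 685, 697, 674 and 681 CPM after C70, with overlap and a log2 fold change of -0.00. At days 0 and 7 Idh1 was at -0.08 and 0.00. In vehicle it peaked at day 1, with 1.84, 1.35 and 0.85 over day 0 at days 1, 2 and 7. As a share of the length-scaled level of Idh1, Idh2 and Idh3a together, Idh2 was 16.9% ± 0.39 in vehicle and 26.7% ± 1.1 after C70 at day 2, with no overlap. Idh3a was 26.3% ± 0.7 and 17.4% ± 0.58.

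**Figure D4:**
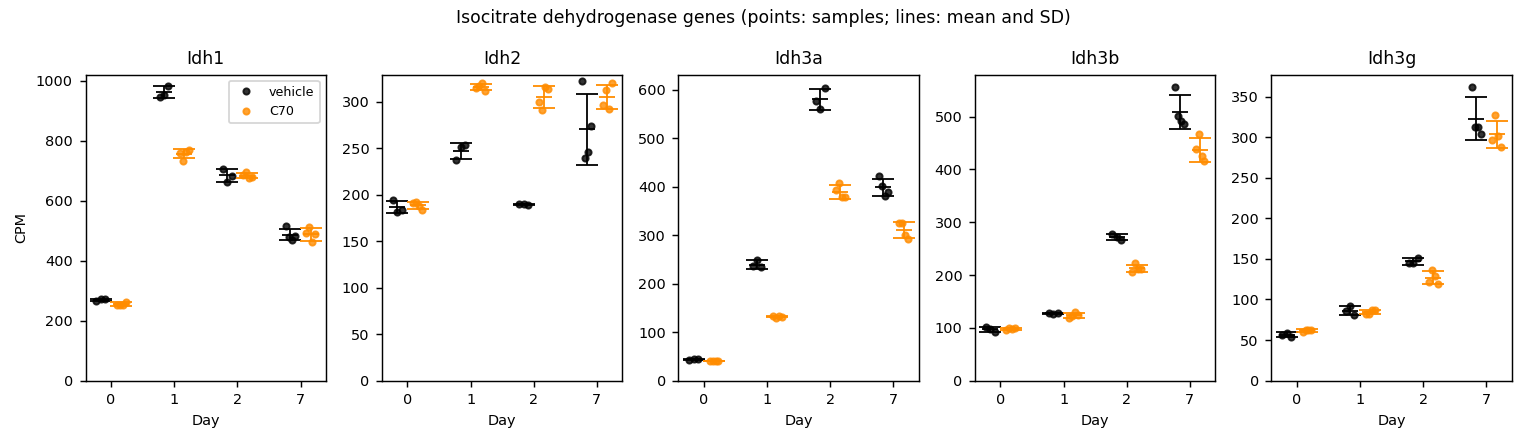
CPM of Idh1, Idh2, Idh3a, Idh3b and Idh3g in each sample by day, in black for vehicle and orange for C70, with lines for the mean and SD of 3 or 4 replicates. Axes start at 0. At day 2 the orange points of Idh2 lie above the black, those of Idh3a and Idh3b lie below, and those of Idh1 overlap.

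From 2-oxoglutarate to oxaloacetate, all 7 members had a negative log2 fold change at days 1 and 2, between -0.30 and -0.12 at day 1 and between -0.42 and -0.26 at day 2. By edgeR's quasi-likelihood test 0 were called at day 1, where 7.82% of all genes fell, and 4 fell at day 2, against 13.6%. At day 1, 7 had an unadjusted and 6 an adjusted p under 0.05, where 19.7% of all genes were lower on the adjusted p alone. With quantile normalization and limma Mdh2 was called at day 1 (-0.34), and DESeq2 and limma-voom called 0 on that day. Dlst, the succinyltransferase core of 2-oxoglutarate dehydrogenase, fell with -0.40 (SE 0.036, adjusted p = 9.22e-11). Suclg1, the alpha subunit shared by both succinyl-CoA ligases, fell with -0.42 (SE 0.061, adjusted p = 1.11e-06). Fh1, the fumarate hydratase, fell with -0.39 (SE 0.052, adjusted p = 2.41e-07), and Mdh2, the malate dehydrogenase of the matrix, with -0.36 (SE 0.057, adjusted p = 3.94e-06). The C70 and vehicle samples did not overlap for any of these 4. Ogdh, Sucla2 and Suclg2 passed the adjusted p but not the fold threshold, with log2 fold changes of -0.30, -0.26 and -0.29. Ogdh was called, at -0.32, without vehicle replicate 3 of day 2. In vehicle at day 2 the 7 genes had risen by 0.81 (Suclg2) to 2.11 (Mdh2), and by day 7 by 1.07 (Suclg2) to 2.36 (Suclg1). At day 1 Mdh2, Ogdh, Fh1, Suclg1 and Dlst had risen by 0.34 (Dlst) to 1.05 (Mdh2), and Sucla2 and Suclg2 stood at 0.19 and 0.09. The log2 fold changes after C70 at days 0 and 7 were -0.11 to 0.14 and -0.17 to 0.08.

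Exchange of malate, aspartate and glutamate across the inner membrane included the largest fall of the set at day 2. Slc25a10 (chromosome 11, 120491840-120499187, plus strand) encodes the dicarboxylate carrier, which exports malate or succinate against phosphate. It was at 20.7, 22.1 and 19.3 CPM in vehicle and 20.4, 21.2, 24.8 and 22.9 CPM after C70 at day 0, with overlap. At day 1 it was at 73.4, 84.3 and 70.3 CPM in vehicle and 53.2, 48.5, 48.6 and 45.7 CPM after C70. The day 2 level of Slc25a10 was 331, 333 and 336 CPM in vehicle and 159, 159, 152 and 161 CPM after C70. The C70 samples lay below vehicle on both days, with log2 fold changes of -0.63 (SE 0.069, adjusted p = 1.01e-08) and -1.08 (SE 0.064, adjusted p = 9.87e-15). By day 7 the values were 578, 476, 470.3 and 512 CPM in vehicle and 564, 567, 538 and 534 CPM after C70, with overlap and 0.11 (SE 0.059, adjusted p = 0.123). The overlap came from vehicle replicate 1, and the other vehicle values lay below every C70 value. Slc25a10 was still not called at day 7 when that replicate was left out. In vehicle Slc25a10 had risen by 1.88, 4.01 and 4.62. Mdh1 (chromosome 11, 21556787-21572367, minus strand), the cytosolic malate dehydrogenase, was at 142, 148 and 134 CPM in vehicle and 109.9, 109, 108 and 112 CPM after C70 at day 1. It was at 593, 586 and 601 CPM in vehicle and 346, 349.9, 349 and 338 CPM after C70 at day 2. Its C70 values were the lower on both days, with -0.37 (SE 0.063, adjusted p = 2.18e-05) and -0.78 (SE 0.06, adjusted p = 4.00e-12), and at day 7 it was -0.13 (SE 0.056, adjusted p = 0.0707). The day 7 values were 976, 759, 770 and 772 CPM in vehicle and 756, 787, 722 and 737 CPM after C70, where vehicle replicate 1 stood above the rest. Mdh1 rose in vehicle by 0.80, 2.86 and 3.33.

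The aspartate aminotransferases, which pass amino groups between glutamate and aspartate, were called in opposite directions at day 7. Got2 (chromosome 8, 95864134-95888547, minus strand), the mitochondrial form, was at 162, 154 and 149.6 CPM in vehicle and 201, 208, 199 and 204 CPM after C70 at day 2. At day 7 it was at 63.6, 58.8, 56.1 and 60.2 CPM in vehicle and 77.1, 79.7, 81.3 and 85.1 CPM after C70. C70 samples were the higher without overlap, with log2 fold changes of 0.39 (SE 0.041, adjusted p = 2.74e-09) and 0.44 (SE 0.04, adjusted p = 3.51e-10), after 0.04 and 0.05 at days 0 and 1. Got1, the cytosolic form, was lower at day 7, at 44.8, 51.4, 46.5 and 44.8 CPM in vehicle and 35.3, 35.1, 35.1 and 31.6 CPM after C70. C70 values were the lower without overlap, the largest fall among the members on that day, with -0.45 (SE 0.054, adjusted p = 5.83e-08). Earlier Got1 was at 0.15, 0.00 and 0.18 on the log2 scale, with 77.2, 80.3 and 78.1 CPM in vehicle at day 0 and 88.9, 86.6, 85.9 and 86.6 CPM after C70. This day 0 difference was the highest of the set, with an adjusted p of 0.046, and was under the fold threshold. It was close to those of Mdh2, Idh3g and Pdk4, each at 0.14. In vehicle Got2 had fallen by 1.35 and Got1 by 0.74 at day 7. Glud1, the glutamate dehydrogenase, and Slc25a11, the oxoglutarate carrier, were not called by edgeR's quasi-likelihood test on any day, with -0.32 (SE 0.04, adjusted p = 6.34e-08) and -0.27 (SE 0.053, adjusted p = 7.02e-05) at day 2. In vehicle Glud1 rose by 0.81, 1.87 and 2.90 and Slc25a11 by 0.53, 1.01 and 0.64. Glud1 was called at day 2 by DESeq2 (-0.33) and with DESeq2 size factors (-0.33) and, at -0.34 to -0.33, without vehicle replicate 1 or 2 or C70 replicate 2 of day 2.

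The change from day 0 to day 2 was lower after C70 than in vehicle for 26 of the 32 members, where this held for 49.6% of all genes. It was higher for Pdk4, with 0.75 in vehicle and 1.93 after C70 on the log2 scale, and for Pdp1 (-1.56 and -0.25), Idh2 (0.02 and 0.69), Got2 (0.03 and 0.38), Idh1 (1.35 and 1.42) and Got1 (-0.20 and -0.17). Idh1 and Got1 did not pass the test of this difference. For Slc25a10 the change was 4.01 in vehicle and 2.82 after C70, and for Pdhb 2.86 and 2.09. By the interaction test, the C70 effect at day 2 was lower than at day 0 for 20 members and higher for 4, against 11.7% and 14.9% of all genes. With a fold change over 1.5 it was lower for 3, against 5.15%. The most negative difference was that of Slc25a10, at -1.19 (SE 0.10, adjusted p = 1.45e-10), followed by Pdhb at -0.77 (SE 0.079, adjusted p = 5.16e-09) and Mdh1 at -0.71 (SE 0.089, adjusted p = 1.54e-07). The positive ones were Pdp1 at 1.31 (SE 0.11, adjusted p = 3.71e-11), Pdk4 at 1.19 (SE 0.099, adjusted p = 7.02e-11), Idh2 at 0.67 (SE 0.088, adjusted p = 4.17e-07) and Got2 at 0.35 (SE 0.058, adjusted p = 1.51e-05). Between day 0 and day 1 the effect became lower for 8 members and higher for 3, against 5.22% and 8.69% of all genes, and on the adjusted p alone lower for 17, against 8.81%, and with a fold change over 1.5 lower for 3, against 1.53%. The day 0 samples enter both of these comparisons.

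**Figure D5:**
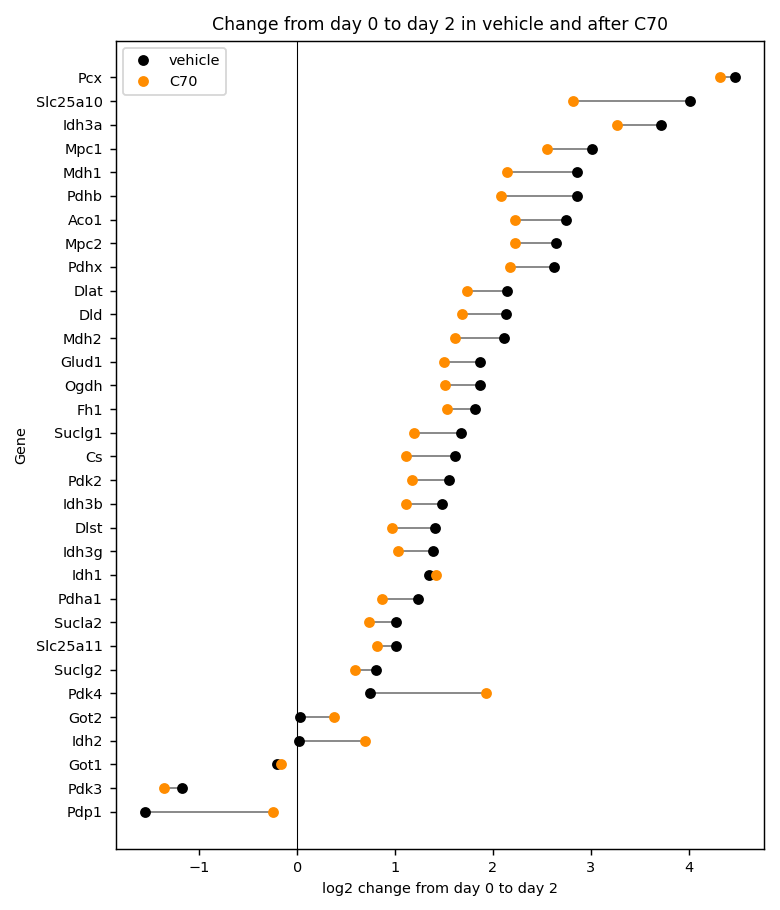
Log2 change from day 0 to day 2 for each member in vehicle (black) and C70 samples (orange), from the fitted group means. The orange point lies to the left of the black for 26 members, and to the right for Pdk4, Pdp1, Idh2, Got2, Idh1 and Got1.

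Between day 2 and day 7 the C70 effect turned upward for more members than downward. It became higher for 10 members and lower for 4, against 11.9% and 9.04% of all genes, and on the adjusted p alone higher for 19, against 16.5%. With a fold change over 1.5 it became higher for 5 and lower for 2, against 5.18% and 4.31%. Slc25a10 changed most upward, by 1.19 (SE 0.087, adjusted p = 7.32e-12), followed by Mdh1, Pdhb, Pdk3, Aco1, Pcx, Pdk2, Dld, Suclg2 and Cs at 0.65 to 0.34. Pdk4 changed most downward, by -1.36 (SE 0.093, adjusted p = 2.15e-12), and Got1 by -0.63 (SE 0.076, adjusted p = 1.42e-07), Idh2 by -0.51 (SE 0.085, adjusted p = 2.32e-05) and Pdp1 by -0.45 (SE 0.11, adjusted p = 0.00178). Cs was not called with quantile normalization and limma, at 0.30. Suclg1, at 0.31, was called by DESeq2, with DESeq2 size factors, with quantile normalization and limma and with a stricter filter on low levels, at 0.33 to 0.34. It was also called, at 0.32 to 0.40, without vehicle replicate 2 or C70 replicate 4 of day 2, or without vehicle replicate 1 or C70 replicate 4 of day 7. Fh1, at 0.29, was called at 0.36 without vehicle replicate 1 of day 7 and at 0.35 with quantile normalization and limma, which also called Dlst, at 0.33 in place of 0.30. Over these days in vehicle 13 members rose and 6 fell, against 26.6% and 26.7% of all genes, and on the adjusted p alone 21 rose against 36.3%. With a fold change over 1.5, 8 rose and 1 fell, against 16.3% and 16.1%. Idh3g rose most, by 1.14, with Glud1 at 1.03, Pdk2 at 0.92, Idh3b at 0.91 and Pdk3 at 0.74. Sucla2, Suclg1, Slc25a10, Idh2, Mdh1, Pdk4 and Pdha1 rose by 0.71 to 0.38. The members that fell were Got2 at -1.38, Idh3a at -0.54, Got1 at -0.54, Idh1 at -0.49, Aco1 at -0.38 and Slc25a11 at -0.37. The rise of Dld, at 0.33, was not called, at 0.30 to 0.32, without vehicle replicate 1 of day 2 or vehicle replicate 2 or 3 of day 7. With quantile normalization and limma, the rises of Dld (0.23) and Pdha1 (0.28) were not called. Cs (0.33, without C70 replicate 1 of day 1, vehicle replicate 1 or C70 replicate 2 of day 7), Pcx (0.34, without vehicle replicate 1 of day 7) and Pdp1 (0.34, without vehicle replicate 3 of day 2 or vehicle replicate 2 of day 7) were called when a library was left out. Fh1 was called, at 0.33 to 0.35, without C70 replicate 1 of day 1, vehicle replicate 1 or 3 of day 2, or vehicle replicate 2, 3 or 4 or C70 replicate 2 of day 7. It was also called with a replicate block, at 0.324 in place of 0.318.

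Among the groups of 4, vehicle replicate 1 of day 7 and C70 replicate 2 of day 2 each held the highest value of their group for 20 of the 32 members, and C70 replicate 4 of day 7 the lowest for 18. Among groups of 3, vehicle replicate 2 of day 1 was the highest for 21. In the 4 vehicle samples of day 7, Mpc2 was at 307, 215, 205 and 235 CPM. Without vehicle replicate 1 of day 7, the median log2 fold change of the members at day 7 was -0.06 in place of -0.10, and the counts stayed at 2 higher and 2 lower.

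Other genes of the pathway were taken from 5 lists, and their counts at day 2 stand beside the 16.9% of all genes that rose and the 13.6% that fell. Of 13 further TCA cycle and pyruvate dehydrogenase genes, 5 fell and 1 rose, with a median log2 fold change of -0.31 beside -0.00 over all genes. Sdha was at -0.36 (SE 0.037, adjusted p = 1.47e-09) and Sdhc at -0.39 (SE 0.056, adjusted p = 7.30e-07), both subunits of succinate dehydrogenase. Ogdhl, a paralog of Ogdh, rose with 0.53 (SE 0.084, adjusted p = 4.55e-06). Of 10 genes for attaching lipoic acid, the cofactor of Dlat and Dlst, 7 fell and 0 rose. Lias, the lipoic acid synthase, was at -0.47 (SE 0.055, adjusted p = 2.00e-08). Of 9 genes for citrate export and the use of acetyl-CoA, 8 fell and 0 rose, among them the citrate carrier Slc25a1 at -1.09 (SE 0.071, adjusted p = 8.38e-14), the acetyl-CoA synthetase Acss2 at -1.27 (SE 0.069, adjusted p = 1.33e-15) and the malic enzyme Me1 at -0.92 (SE 0.048, adjusted p = 7.07e-16). Of 5 lactate and pyruvate genes 1 fell and 1 rose. The lactate dehydrogenase subunit Ldha fell, at -0.88 (SE 0.082, adjusted p = 2.04e-10), and the lactate exporter Slc16a3 rose, at 1.03 (SE 0.24, adjusted p = 6.59e-04). Among 9 genes of glutamate and aspartate exchange 1 rose and 3 fell, the latter being Gpt, Gpt2 and Aldh18a1, at -1.52, -0.39 and -0.58. At day 7 the counts of these lists, in the same order, were 1, 0, 2, 1 and 1 higher and 0, 1, 2, 1 and 0 lower. Of all genes 14.3% rose and 4.88% fell on that day.

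Markers of cell state also differed after C70. Their counts stand beside 13.6% of all genes that rose and 7.82% that fell at day 1. At day 2 these shares were 16.9% and 13.6%, and at day 7 14.3% and 4.88%. The summed level of 9 adipocyte markers was 24268 to 25153 CPM in vehicle and 14001 to 15527 CPM after C70 at day 2, with 8 of 9 called lower. Lpl, with means of 9693 and 5994 CPM, and Fabp4, with 7490 and 3789 CPM, made up most of these sums. At day 7 the sums were 25261 to 29529 and 27706 to 30455 CPM, with 2 of 9 higher and 0 lower. For 7 preadipocyte and fibroblast markers the day 2 sums were 3442 to 3515 and 5877 to 6250.4 CPM, with 6 higher. Col1a1 and Col3a1 made up most of them, with means of 893 and 1880 CPM in vehicle and 1507 and 3495 CPM after C70. At day 7 the sums were 2219 to 2906 and 4746 to 5478 CPM, with 7 of 7 higher. For 8 markers of dividing cells the day 2 sums were 515 to 531 and 339 to 359.7 CPM, with 7 lower, and the day 7 sums 78.4 to 89.3 and 69.04 to 75.6 CPM, with 2 higher and 1 lower. The 2 higher at day 7 were Bub1 and Cdk1. Bub1 was near 0, with means of 0.12 CPM in vehicle and 0.32 CPM after C70, and Cdk1 was at 5.94 and 7.81 CPM. Among these markers Retn was at 0 in 1 sample of each day 0 group and Bub1 in 1 vehicle sample of day 7, and none was at 0 in every sample of a group. At day 1, 8 adipocyte and 7 dividing cell markers were lower, and 4 preadipocyte markers higher and 1 lower. The part of these shifts in the members' changes was not tested. Of the macrophage markers 1 of 5 was in the table, Cd68, at 1.13 to 1.67 CPM in vehicle and 18.7 to 19.8 CPM after C70 at day 0, and at 1.33 to 1.75 CPM in vehicle and 6.35 to 6.94 CPM after C70 at day 2. At day 7 its ranges were 1.92 to 2.69 and 1.06 to 2.79 CPM. Of the muscle markers 1 of 5 was present, Des, at 3.48 to 3.64 CPM in vehicle and 4.76 to 5.39 CPM after C70 at day 2, and at 40.6 to 50.9 and 35.3 to 43.6 CPM at day 7. The table held 0 of 4 endothelial markers.

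For 7 members the exons overlap a gene on the other strand, and the use of strand in counting is not stated, so part of their reads may belong to the neighbour. These were Pdha1, Mpc1, Idh3b, Mdh1, Got2, Slc25a10 and Slc25a11. Mpc1 and Got2 also have annotated pseudogenes that could share reads.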

How the data were processed

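The authors deposited 1 table of raw counts per gene for 11959 genes in 29 samples, which is named as normalized but holds whole numbers that differ in total between samples. Per the submitters' notes reads were aligned with STAR 2.7.2a to GRCm38 and handled with edgeR 3.26.8. The counting program and its use of strand are not given in the sources used here, and the filter that left these genes was applied before deposit. No value columns lacked a sample.

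Gene symbols and coordinates were taken from GENCODE M21 on GRCm38. Counts were scaled by TMM (factors 0.898 to 1.08) and fitted with edgeR 4.0.16 in R 4.3.3 by a quasi-likelihood model with 1 mean for each of the 8 groups, over all genes, with Benjamini-Hochberg adjustment. The common biological coefficient of variation was 0.0594. Called genes had an adjusted p under 0.05 and a log2 fold change over 0.32 in size. A difference between C70 effects on 2 days was tested as an interaction. Log2 fold changes came from a fit without a prior count. Standard errors were derived as the size of the log2 fold change over the square root of the F statistic of the quasi-likelihood test. For comparisons over time, standard errors and adjusted p are given as ranges. Alternatives used limma 3.58.1 and DESeq2 1.42.0, other scaling, a stricter filter that left out the genes with the lowest mean log2 CPM, a separate fit per day, a replicate block, other call thresholds and each library left out. The code was tested on simulated data. Tables and figures were made with Python 3.11.15, pandas 2.3.3, numpy 2.4.6 and matplotlib 3.10.9.

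All 32 members were accounted for. By rule, called members were named, and sample values were given for those called after C70 on 2 or more days, for the largest rise and fall of each day and for small families with a called member. Genes of the other pathway lists were named only where called, and some of these are not reported here. The members and lists were chosen with earlier results of these data known. All 39 pairs of replicates differed by more than sampling noise, with a chi-square per degree of freedom of 2.65 to 46.7, so each sample was counted once. Replicate numbers did not pair the samples.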

Additional observations from a re-analysis of the deposited data

Results flagged for a closer look

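In groups of 4 samples, 10 of 160 groups of member values had a sample far from the other 3, by a gap over 0.829 of the range of the group, where chance gives 1 in 20, or 8. In vehicle replicate 1 of day 7 this held for Pdhb at 423 CPM, Idh3g at 362 CPM, Suclg1 at 499.8 CPM, Mdh1 at 976 CPM and Slc25a11 at 99.4 CPM, each the highest of its group. In C70 replicate 4 of day 7, Cs at 670.4 CPM and Got1 at 31.6 CPM were low. At day 0, Pdhb at 38.0 CPM in C70 replicate 2 and Idh3g at 59.5 CPM in C70 replicate 1 were low, and at day 2 Dld at 383 CPM in C70 replicate 2 was high.

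The C70 effect differed between days by the interaction test of edgeR for the following members, given as the difference of the log2 fold changes. From day 0 to day 1 it became higher for Pdk4 (0.75), Pdp1 (0.84) and Idh2 (0.34), and lower for Pdhb (-0.37), Pdhx (-0.58), Mpc1 (-0.37), Mpc2 (-0.37), Aco1 (-0.60), Idh3a (-0.74), Mdh2 (-0.44) and Slc25a10 (-0.74), with standard errors of 0.066 to 0.13 and adjusted p of 1.62e-09 to 0.036. Of these, Mpc2 was not called without any 1 of 9 libraries, namely vehicle replicates 1, 2 and 3 and C70 replicates 1 and 3 of day 0, and vehicle replicates 2 and 3 and C70 replicates 1 and 4 of day 1, with adjusted p of 0.0527 to 0.111. Mpc1, at -0.32, was not called without vehicle replicate 2 of day 1, and Idh2, at 0.31, without vehicle replicate 1 of day 0 or of day 1. Mdh1 was called, at -0.34 to -0.32, without vehicle replicate 1 or 2 or C70 replicate 2 of day 0, or without vehicle replicate 3 of day 1.

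From day 0 to day 2 the effect became higher for Pdk4 (1.19), Pdp1 (1.31), Idh2 (0.67) and Got2 (0.35), with standard errors of 0.051 to 0.13 and adjusted p of 3.71e-11 to 0.00924 over the members in both directions. It became lower for Pdha1 (-0.37), Pdhb (-0.77), Dlat (-0.41), Pdhx (-0.45), Dld (-0.46), Pdk2 (-0.38), Mpc1 (-0.46), Mpc2 (-0.42), Cs (-0.51), Aco1 (-0.52), Idh3a (-0.45), Idh3b (-0.37), Idh3g (-0.35), Ogdh (-0.36), Dlst (-0.43), Suclg1 (-0.48), Mdh1 (-0.71), Mdh2 (-0.50), Glud1 (-0.36) and Slc25a10 (-1.19). Idh3g, at -0.31, was not called without vehicle replicate 3 of day 0, and Pdk2, at -0.32, without C70 replicate 4 of day 2.

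From day 2 to day 7 it became higher for Pdhb (0.64), Dld (0.43), Pdk2 (0.54), Pdk3 (0.63), Pcx (0.56), Cs (0.34), Aco1 (0.60), Suclg2 (0.37), Mdh1 (0.65) and Slc25a10 (1.19), and lower for Pdk4 (-1.36), Pdp1 (-0.45), Idh2 (-0.51) and Got1 (-0.63), with standard errors of 0.048 to 0.11 and adjusted p of 2.15e-12 to 0.00178.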

How the results depend on the processing

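No called fold change of a member reversed its direction under the alternatives that were run. Of 7408 values of called members under alternatives, 7279 kept their call and 129 lost it, 77 of them where the fold change had to exceed 1.5 and 52 under the other settings. The counts of called members moved by over 1.5 times only with the call rule. With the adjusted p alone, 1 member was higher and 2 lower after C70 at day 0, 21 were lower at day 1, and 5 were higher and 12 lower at day 7. In vehicle from day 2 to day 7, 21 were then higher. The effect fell for 17 from day 0 to day 1 and rose for 19 from day 2 to day 7. With a fold change over 1.5, 3 members were lower at day 1 (1.64% of all genes were), 5 were lower at day 2 (4.67%), and 1 was higher and 0 lower at day 7 (7.95% and 0.87%). From day 2 to day 7 in vehicle, 8 were then higher and 1 lower (16.3% and 16.1%). The effect fell for 3 members from day 0 to day 1 (1.53%) and for 3 from day 0 to day 2 (5.15%), and from day 2 to day 7 rose for 5 and fell for 2 (5.18% and 4.31%). When 1 library was left out, the count lower after C70 was 8 to 10 at day 1 and 19 to 21 at day 2.

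Samples with the same replicate number did not deviate together, with correlations of -0.205 to 0.214 and the own number the best match in 3 of 13 cases. With a replicate block, 9 members were lower at day 1 and 19 at day 2, where Mpc1 at -0.31 and Pdha1 at -0.32 on the log2 scale were the members lost. The vehicle rise of Fh1 from day 2 to day 7 was gained there, at 0.324 in place of 0.318. Pdha1, close to the fold threshold, was also not called by limma-voom (-0.32) or in a fit of day 2 alone (-0.32). The medians of the members moved by more than the spread between replicates in 11 of 393 values. With quantile normalization and limma, the calls lost were Pdha1 after C70 at day 2 (-0.31), the vehicle rises of Pdha1 (0.38 to 0.28) and Dld (0.33 to 0.23) from day 2 to day 7, and the changes in C70 effect of Glud1 from day 0 to day 2 (-0.36 to -0.31) and of Cs from day 2 to day 7 (0.34 to 0.30). The calls gained there were Dld (-0.32) and Mdh2 (-0.34) after C70 at day 1, the vehicle rise of Cs at day 1 (0.35), and the changes in C70 effect of Dlst (0.33), Suclg1 (0.34) and Fh1 (0.35) from day 2 to day 7. With a stricter filter on low levels, Dlat (-0.32) and Mpc1 (-0.31) were not called at day 1, nor Pdha1 (-0.31) at day 2, nor the vehicle rises of Dlst (0.31) and Pdk2 (0.31) at day 1, and Suclg1 (0.33) was gained. DESeq2 and its size factors each gained Glud1 at day 2 (-0.33) and Suclg1 (0.33). With 3 or 4 samples a group, calls close to the fold threshold or to the adjusted p threshold could change with the library or the scaling.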
